A study of Mus musculus with 6 samples.

Results

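The muscle acetylcholine receptor and the genes that gather it at the nerve contact were followed in cultured muscle satellite cells (SCs) as a set of 9 genes out of the 55416 in the deposited table. They were chosen by name, by a rule that uses no measured value, and each name matched the table. The receptor subunits were *Chrna1* (ENSMUSG00000027107), *Chrnb1* (ENSMUSG00000041189), *Chrnd* (ENSMUSG00000026251), *Chrng* (ENSMUSG00000026253) and *Chrne* (ENSMUSG00000014609). The clustering genes were *Lrp4* (ENSMUSG00000027253), *Musk* (ENSMUSG00000057280), *Dok7* (ENSMUSG00000044716) and *Rapsn* (ENSMUSG00000002104). *Chrnd* and *Chrng* are next to each other on chromosome 1, *Chrna1*, *Lrp4* and *Rapsn* lie on chromosome 2, *Chrnb1* and *Chrne* on chromosome 11, *Musk* on chromosome 4 and *Dok7* on chromosome 5.

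The study compared SCs of WT mice with SCs of lactoferrin-knockout (*Ltf*-KO) mice, to learn how lactoferrin, an iron-binding glycoprotein of milk and other secretions, bears on SC growth. The knockout was made by CRISPR-Cas9 in C57/BL6N zygotes, removes exons of *Ltf* and is systemic, so that every cell of the animal carries it and not the SCs alone. SCs are the stem cells of skeletal muscle. They were sorted from the muscle of adult mice, and the paper names the sorted cells as Sca1-, CD11b-, CD34+ and α7-integrin+. The antibodies it lists for the staining are against CD31, CD45, Sca1 and α7-integrin. The sorted cells were grown for 4 days on Matrigel in medium with serum, chick embryo extract and basic fibroblast growth factor, with no further treatment in either genotype. RNA-seq was run on 3 WT and 3 *Ltf*-KO libraries. No label states that the libraries of a genotype came from separate mice or cultures, so p-values measure the spread between these samples, which may be technical.

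The muscle nicotinic acetylcholine receptor is a ring of subunits around a cation channel that opens when acetylcholine binds. *Chrna1*, *Chrnb1* and *Chrnd* encode the alpha, beta and delta subunits of every muscle receptor, while the remaining position is filled by the gamma subunit (*Chrng*) in fetal and denervated muscle and by the epsilon subunit (*Chrne*) in innervated adult muscle. At the junction the nerve releases agrin, which binds *Lrp4* on the muscle surface. *Lrp4* then activates the receptor tyrosine kinase encoded by *Musk*, the adaptor encoded by *Dok7* binds and further activates the kinase, and rapsyn, the product of *Rapsn*, anchors the receptors in clusters. Receptor subunit genes are switched on in differentiating myoblasts by myogenic factors that bind the E-box CANNTG, often as CAGCTG, and genes of the adult synapse are known for the N-box CCGGAA, which is bound by Ets-family factors.

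The sequences before the start of 3 subunit genes are shown: *Chrna1*, the most abundant subunit transcript described below, and *Chrng* and *Chrne*, the fetal and adult alternatives, of which the first was present and the second listed at 0. Each is the 250 bases upstream of the start site in RefSeq on GRCm38.p6, read 5′ to 3′ on the strand of the gene. Capitals mark CAGCTG and CCGGAA. The *Chrng* window is chr1:87205561-87205810 on the plus strand, the *Chrna1* window is chr2:73580339-73580588 on the minus strand and the *Chrne* window is chr11:70619195-70619444 on the minus strand.
Chrng: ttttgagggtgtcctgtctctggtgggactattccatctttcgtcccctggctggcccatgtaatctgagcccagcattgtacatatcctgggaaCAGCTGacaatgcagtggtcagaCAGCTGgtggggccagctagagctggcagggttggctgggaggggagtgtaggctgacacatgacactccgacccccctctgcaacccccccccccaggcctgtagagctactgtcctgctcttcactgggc
Chrna1: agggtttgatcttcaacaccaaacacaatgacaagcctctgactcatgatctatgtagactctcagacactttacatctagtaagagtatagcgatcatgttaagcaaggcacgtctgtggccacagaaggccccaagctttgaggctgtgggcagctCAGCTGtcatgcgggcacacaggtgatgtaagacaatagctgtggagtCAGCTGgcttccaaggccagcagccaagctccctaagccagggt
Chrne: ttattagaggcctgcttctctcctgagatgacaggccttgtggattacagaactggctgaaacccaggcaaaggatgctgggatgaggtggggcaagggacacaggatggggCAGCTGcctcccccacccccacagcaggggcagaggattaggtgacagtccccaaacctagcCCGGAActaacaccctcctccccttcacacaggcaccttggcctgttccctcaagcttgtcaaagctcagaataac

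CAGCTG, which reads the same on both strands and is one form of CANNTG, occurred in *Chrng* at 155 and 132 bases before the start, in *Chrna1* at 92 and 44 bases, and in *Chrne* at 138 bases. The *Musk* window held it once, at 68 bases before the start. It was found in 13.0% of 32851 windows of this length. The letters of the wider CANNTG occurred in 66.2% of the windows, and *Chrng*, *Chrna1*, *Musk* and *Chrnb1* each held 3. CCGGAA, searched on both strands, occurred in *Chrne* at 76 bases before the start and in none of the other 6 windows, which covered *Dok7* with 2 starts. It was present in 12.0% of all windows. Windows were found for 6 of the 9 genes, and those of *Chrnd*, *Rapsn* and *Lrp4* were not analysed here. A match is a description of letters and does not show that a factor bound there.

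The values are TPM, a transcript abundance corrected for gene length and scaled to a common total in each library. Levels of different genes can therefore be set side by side, whereas how many reads lie behind any of them cannot be known. The libraries summed to between 993650 and 994356 TPM and held 12828 to 12951 genes at 1 TPM or more. *Ltf* itself was listed at 0.12, 0.02 and 0.02 TPM in WT and at 0.02, 0.03 and 0.00 TPM in *Ltf*-KO, so its level was near 0 in both genotypes and does not check the labels. The SC and myoblast markers were present in each library, from *Pax7* at 36.62 to 43.30 TPM to *Myod1* at 747.62 to 815.74 TPM.

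*Chrna1*, the alpha subunit that carries most of the acetylcholine binding site, was the most abundant of the 9 genes. It stood at 516.96, 512.45 and 513.37 TPM in WT and at 525.71, 522.02 and 508.21 TPM in *Ltf*-KO, a level above that of 97.9% of the 12956 genes tested. The *Ltf*-KO values lay on both sides of the WT values, and the groups overlapped. *Chrnb1*, the beta subunit, was at 136.30, 136.13 and 137.06 TPM in WT and at 139.34, 125.50 and 137.50 TPM in *Ltf*-KO. The WT libraries were nearly equal, and *Ltf*-KO replicate 2 was the lowest of all 6. *Chrnd*, the delta subunit, was at 62.78, 70.48 and 72.07 TPM in WT and at 73.55, 64.97 and 74.96 TPM in *Ltf*-KO. One library of each genotype, WT replicate 1 and *Ltf*-KO replicate 2, was low, and the groups overlapped.

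The fetal gamma subunit was present and the adult epsilon subunit was not seen. *Chrng* was at 99.58, 114.58 and 94.47 TPM in WT and at 115.24, 91.02 and 116.05 TPM in *Ltf*-KO, above the level of *Chrnd* in every library. *Ltf*-KO replicates 1 and 3 and WT replicate 2 were high, and *Ltf*-KO replicate 2 was the lowest. *Chrne* was listed at 0 TPM in all 6 libraries, and since the table gives 2 decimals and no depth, no fold or lower limit can be set for it. In the same libraries 20 genes used by every cell type were all above 0, the lowest value being 30.51 TPM. Genes at such levels do not test whether a low transcript would have been seen. In the GENCODE M21 annotation no other gene shares exon bases with *Chrne*, though the gene *4930544D05Rik* overlaps its span.

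Summed over the 5 subunit genes, receptor transcripts came to 815.62, 833.64 and 816.97 TPM in WT and to 853.84, 803.51 and 836.72 TPM in *Ltf*-KO. *Chrna1* made up 60.7% to 65.0% of this sum over the 6 libraries, *Chrnb1* 15.6% to 16.8%, *Chrng* 11.3% to 13.9% and *Chrnd* 7.70% to 8.96%. The alpha subunit was thus the most abundant subunit transcript in each library. Its level relative to *Chrnb1* was 3.77 ± 0.0238 in WT (mean ± SD, n = 3) and 3.88 ± 0.248 in *Ltf*-KO (n = 3; exact permutation p = 0.8). The gamma to delta ratio was 1.51 ± 0.172 in WT and 1.51 ± 0.0909 in *Ltf*-KO (n = 3 each; exact permutation p = 1.0). Among 7 ratios between members compared in this way, including *Chrna1* to *Rapsn*, *Dok7* to *Musk* and *Musk* to *Lrp4*, the lowest exact p was 0.4 and each adjusted p was 1.0. With 3 libraries against 3 the smallest p this two-sided test can give is 0.1.

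**Figure D1:**
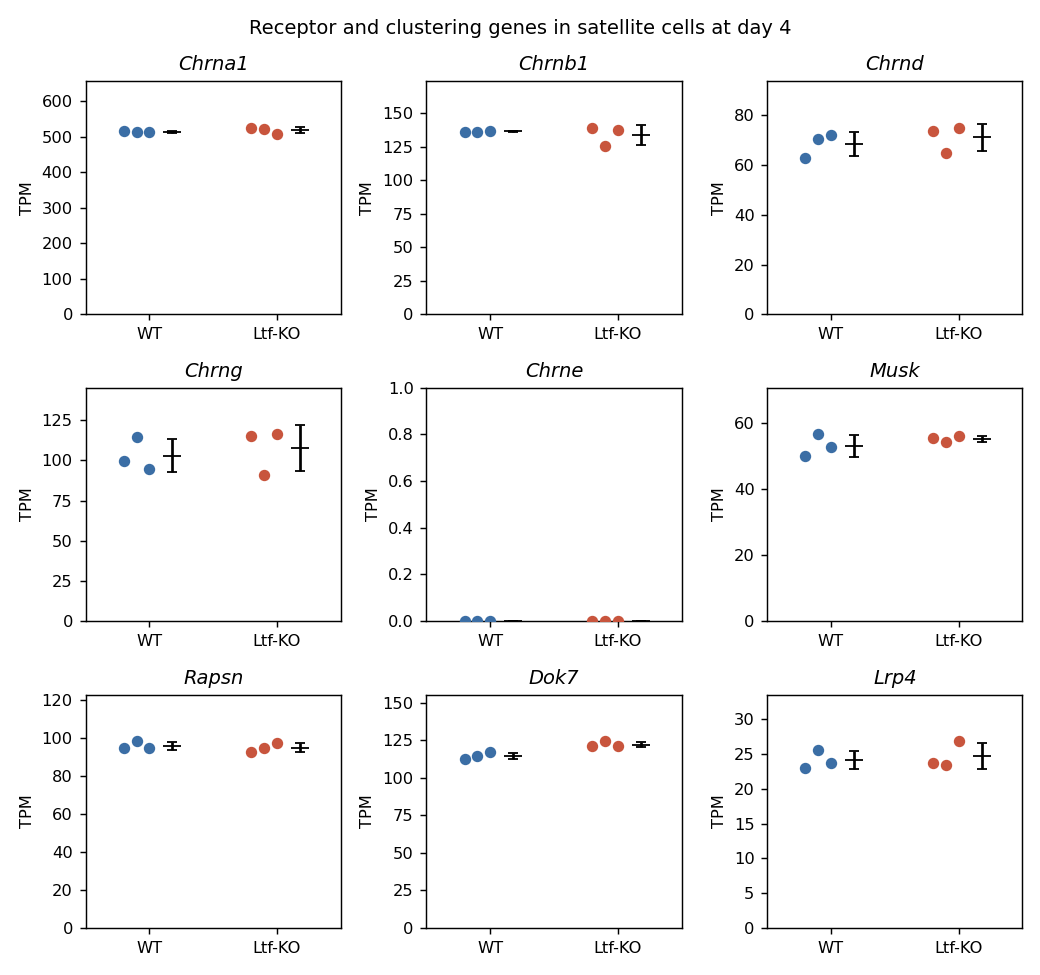
TPM of the 9 genes in each library, on linear axes that start at 0, with WT in blue, *Ltf*-KO in red and the mean ± SD of n = 3 libraries beside the points. *Chrna1* lies between 508.21 and 525.71 TPM, *Chrne* lies on 0 in every library, and *Dok7* is the one gene whose 3 *Ltf*-KO points all lie above the WT points.

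Of the clustering genes, *Lrp4*, the agrin receptor, had the lowest level. It was at 23.05, 25.56 and 23.70 TPM in WT and at 23.78, 23.43 and 26.86 TPM in *Ltf*-KO, with 60.8% of tested genes below it. *Ltf*-KO replicate 3 and WT replicate 2 were the highest, and the groups overlapped. *Musk*, the kinase, was at 50.13, 56.66 and 52.82 TPM in WT and at 55.60, 54.34 and 56.05 TPM in *Ltf*-KO. The *Ltf*-KO libraries fell within the WT range, between the WT replicates 3 and 2. *Rapsn*, the anchoring protein, was at 94.72, 98.26 and 94.73 TPM in WT and at 92.63, 94.97 and 97.10 TPM in *Ltf*-KO, again with overlap. The exons of the gene *Gm13778* share bases with *Rapsn*. The strand of *Gm13778* is not given here, and the sources used do not say whether counting used strand. Reads of the shared bases therefore cannot be told apart.

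*Dok7*, the cytoplasmic adaptor of the kinase, was the exception in that its groups did not overlap. It was at 112.61, 114.24 and 116.85 TPM in WT and at 120.86, 124.23 and 121.05 TPM in *Ltf*-KO, so that the lowest *Ltf*-KO library was above the highest WT library. The means were 115 ± 2.14 and 122 ± 1.89 TPM (SD, n = 3 each), a ratio of 1.07. On the log2(TPM + 1) scale the difference was 0.091 ± 0.034 (SE), with a 95% interval of 0.0097 to 0.17, or 1.01-fold to 1.13-fold. Its unadjusted limma p was 0.0334 and its adjusted p 0.999, and the exact permutation p was 0.1, the smallest possible, so the difference did not pass the test. Non-overlapping groups were found for 8.46% of the 12956 genes tested, and for 4.73% with *Ltf*-KO higher, against 1 of the 8 members tested. An unadjusted p under 0.05 was found for 3.78% of all tested genes, and for 2.01% in the direction of higher in *Ltf*-KO, also against 1 of 8 members. In the lower direction the background was 3.73% for groups without overlap, against 0 of 8 members.

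None of the members passed the test between the genotypes. At an adjusted p under 0.05 in limma, 0 of the 8 members tested were called, and the background was 0.0% of the 12956 genes, of which 490 had an unadjusted p under 0.05. All 8 had an adjusted p of 0.999. The log2 differences (*Ltf*-KO minus WT) were 0.012 for *Chrna1*, -0.027 for *Chrnb1*, 0.055 for *Chrnd*, 0.058 for *Chrng*, 0.032 for *Lrp4*, 0.057 for *Musk* and -0.015 for *Rapsn*, with unadjusted p from 0.322 to 0.698 in the limma fit. In counts, 6 of the 8 were on the side of higher in *Ltf*-KO with a median of 0.044, compared with 55.7% of all tested genes and a median of 0.011.

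The intervals of these differences show how large a change the libraries could still hide, and they were narrow for some genes and wide for others. The 95% interval of *Chrna1* ran from -0.052 to 0.077 on the log2 scale, which is 0.964-fold to 1.05-fold. That of *Rapsn* ran from -0.10 to 0.074, and that of *Chrnb1* from -0.14 to 0.086. The interval of *Chrng* was the widest of the 8, from -0.22 to 0.33. *Musk* was bounded at -0.071 and 0.19, *Lrp4* at -0.14 and 0.20, and *Chrnd* at -0.13 and 0.24. A difference in *Chrng* could thus be larger than one in *Chrna1* and still lie within its interval.

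**Figure D2:**
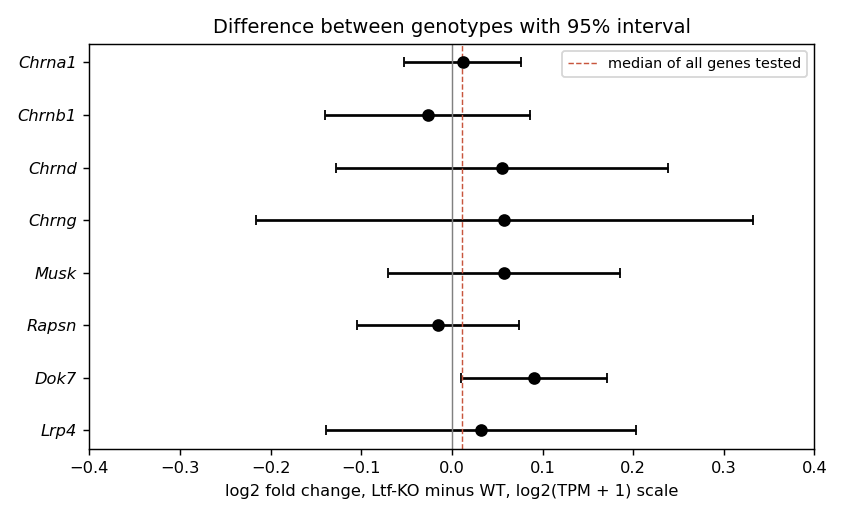
Difference between the genotypes in log2(TPM + 1), *Ltf*-KO minus WT, for the 8 members tested, with points for the limma estimate from 6 libraries, bars for the 95% interval and a dashed line at the median of all 12956 genes tested (0.011). The *Dok7* interval alone lies above 0, without adjustment for the number of genes, and the *Chrng* interval is the widest.

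In order of mean level over both genotypes the genes ran *Chrna1*, *Chrnb1*, *Dok7*, *Chrng*, *Rapsn*, *Chrnd*, *Musk*, *Lrp4* and *Chrne*. *Chrna1* exceeded *Chrnb1* by 3.82-fold on average, between 3.70-fold and 4.16-fold in single libraries. *Chrnb1* exceeded *Dok7* in 6 of 6 libraries, by 1.01-fold to 1.21-fold. *Rapsn* exceeded *Chrnd* by 1.26-fold to 1.51-fold, *Chrnd* exceeded *Musk* by 1.20-fold to 1.36-fold, and *Musk* exceeded *Lrp4* by 2.09-fold to 2.34-fold. Each of these 5 steps was in the same direction in 6 of 6 libraries (two-sided exact sign-flip permutation p = 0.03125, the smallest possible with 6 libraries, adjusted p = 0.0437 over 7 neighbouring pairs). The order was taken from the same 6 libraries, so these p-values measure only whether a step repeats across them. *Chrne*, listed at 0, was not tested. The middle of the order was not resolved. *Dok7* was above *Chrng* in 5 of 6 libraries, with ratios from 0.997 to 1.36 (exact p = 0.0625, adjusted p = 0.0729), and *Chrng* was above *Rapsn* in 4 of 6, with ratios from 0.958 to 1.24 (exact p = 0.125, adjusted p = 0.125). The ranges of these neighbours overlapped.

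The members also differed in how much they varied between libraries. The coefficient of variation over the 6 libraries was 1.26% for *Chrna1*, and 4.55% of the 396 genes within 2-fold of its level had a smaller one. *Rapsn*, at 2.09%, was likewise steady for its level, with 6.09% of 2169 such genes below it. *Chrng* was at the other end, at 10.9%, where 93.3% of 1994 genes of like level varied less and their median was 4.53%. *Chrnd* varied by 6.99%, more than 73.7% of genes of like level. *Chrnb1*, *Dok7*, *Musk* and *Lrp4* were closer to the middle, at 3.65%, 3.78%, 4.51% and 6.09%, with 37.3% to 44.5% of genes of like level below them. Subunits that join in the same receptor thus did not share a spread, with *Chrna1* and *Chrng* at opposite ends.

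**Figure D3:**
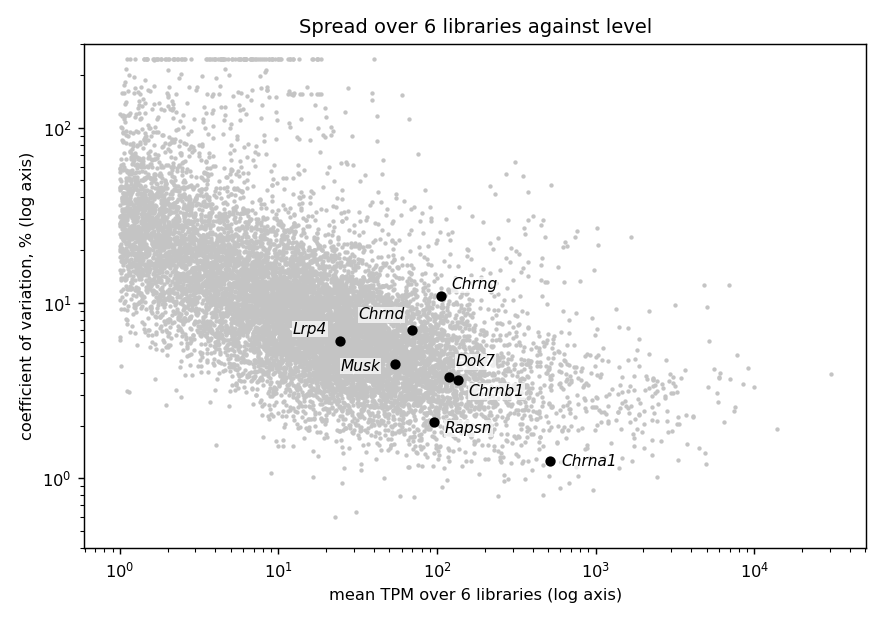
Coefficient of variation over the 6 libraries (percent, log axis) against mean TPM (log axis) for the 12956 genes tested, in grey, with the 8 members in black. *Chrna1* (1.26%) and *Rapsn* (2.09%) lie low among genes of their level and *Chrng* (10.9%) lies high. The row of grey points along the top are genes seen in 1 library only.

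*Chrng* and genes of muscle differentiation deviated to the same side of their means in all 6 libraries. A list of 18 such genes, among them *Myog*, the myogenic factor of early differentiation, the fusion genes *Mymk* and *Mymx*, embryonic myosin *Myh3* and sarcomeric actins and troponins, deviated from its mean over 6 libraries by -0.12, 0.19 and -0.28 on the log2 scale in WT and by 0.019, -0.22 and 0.41 in *Ltf*-KO. *Chrng* deviated by -0.071, 0.13 and -0.15 in WT and by 0.14, -0.20 and 0.15 in *Ltf*-KO. *Myog* itself ranged from 266.24 TPM in *Ltf*-KO replicate 2 to 507.77 TPM in *Ltf*-KO replicate 3. WT replicate 2 and *Ltf*-KO replicate 3 were high for the list and for *Chrng*, and WT replicate 3 and *Ltf*-KO replicate 2 were low for both. Endothelial markers, which summed to 9.85 TPM or less, deviated the other way in those 4 libraries. Their deviations were -0.28 in WT replicate 2, 0.37 in WT replicate 3, 0.33 in *Ltf*-KO replicate 2 and -0.32 in *Ltf*-KO replicate 3. In WT replicate 1 (-0.21) and *Ltf*-KO replicate 1 (0.10) they lay on the same side as the differentiation list. Schwann cell, fibroblast, and smooth muscle and pericyte markers deviated the other way in the same 4 libraries. In WT replicate 1 and *Ltf*-KO replicate 1 they too lay on the side of the differentiation list. Smooth muscle and pericyte values were small in WT replicates 2 and 3, at -0.020 and 0.0058. Markers of macrophages and of neurons deviated the other way in only some of the 4. Only tested genes entered these means: 6 for Schwann cells, 3 for endothelial cells, 2 for fibroblasts and 1 for each of the other types. The part of such cells was not tested. In libraries made from a mass of cells, more cells that have begun to differentiate and more RNA per such cell cannot be told apart.

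Across the 6 libraries the level of *Chrng* and that of the list gave Pearson's r = 0.876 (exact permutation p = 0.0319) and Spearman's rho = 0.886 (exact permutation p = 0.0333). The relation was computed for the 8 members after their values had been seen, and the adjusted p was 0.128 for r and 0.266 for rho, so it did not pass correction. Without the 2 libraries farthest from the median of the list, WT replicate 2 and *Ltf*-KO replicate 3, r was 0.933, and with each genotype centred on its own mean it was 0.872. For *Lrp4*, r was 0.915 (exact permutation p = 0.0167, adjusted p = 0.128) and rho was 0.771 (exact permutation p = 0.103, adjusted p = 0.275). Without the same 2 libraries r was 0.0994, so that the relation of *Lrp4* rests on them. The r of the other members ran from -0.518 for *Chrna1* to 0.643 for *Musk*, with adjusted p of 0.39 or more (exact permutation). Without the same 2 libraries r was 0.744 for *Chrna1* and -0.87 for *Rapsn*, which had been 0.589, so the signs of both rest on those libraries. *Dok7*, whose groups did not overlap, had r = 0.0347 with the list (exact permutation p = 0.95), and -0.594 with each genotype centred on its own mean. A genotype holds 3 libraries, too few for a test within it.

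**Figure D4:**
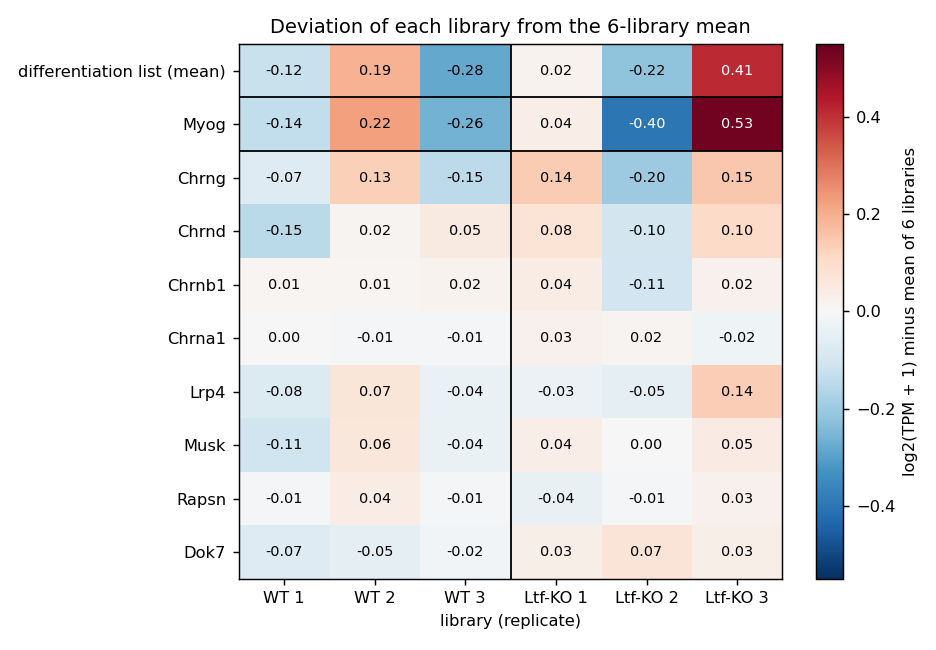
Deviation of each library (columns, WT to the left of the black line) from the mean of the 6 libraries in log2(TPM + 1), in red where higher and blue where lower, for the mean of the 18 differentiation genes, *Myog* and the 8 members tested. *Chrng* follows the upper rows, with -0.20 in *Ltf*-KO replicate 2 and 0.15 in *Ltf*-KO replicate 3, while the *Chrna1* row stays between -0.023 and 0.026 throughout.

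Between genotypes, 0 of the 18 genes of the list had an unadjusted limma p under 0.05 (background 3.78%), and the list as a whole was not tested. All 18 were on the higher side in *Ltf*-KO, against 55.7% of all tested genes, with a median log2 difference of 0.14 against 0.011, and the summed level was 4216.17 to 5689.34 TPM in WT and 4309.56 to 6614.68 TPM in *Ltf*-KO. Its part in the differences of the members was not tested.

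The partners of these genes in the pathway were described from 7 lists holding 94 genes, of which 93 were in the table and 72 were tested. None was called at an adjusted p under 0.05 in limma, 4 had an unadjusted p under 0.05, 48 were on the higher side in *Ltf*-KO and 24 on the lower, and the median difference was 0.024 on the log2 scale against 0.011 over all tested genes. Of the 4, 3 were higher in *Ltf*-KO (background 2.01%) and 1 lower (background 1.78%). For the counts of genes on the higher side, here and by list below, the background is the share of all tested genes given above with the members.

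Among 13 ligands and matrix partners, 11 were tested, with 9 on the higher and 2 on the lower side. *Agrn*, which encodes agrin and is made by muscle as well as nerve, was at 20.50 to 24.69 TPM in WT and 19.42 to 25.19 TPM in *Ltf*-KO. *Lama5*, a laminin chain of the synaptic basal lamina, was at 19.46, 16.91 and 19.72 TPM in WT and at 21.87, 22.60 and 20.50 TPM in *Ltf*-KO, a log2 difference of 0.20 (limma adjusted p = 0.999). *Col13a1*, a membrane collagen of the junction, was at 8.29, 7.81 and 8.25 TPM in WT and at 7.35, 6.55 and 7.19 TPM in *Ltf*-KO, a difference of -0.18 (limma adjusted p = 0.999). Both had an unadjusted limma p under 0.05 (background 3.78%) and groups that did not overlap (background 8.46%). The order of the genotypes was opposite in the one and the other. The neuregulin receptor *Erbb4* was at 0.12 TPM or less, while its relatives *Erbb2* and *Erbb3* were at 10.20 to 10.86 and 6.62 to 8.70 TPM.

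Among 28 genes of postsynaptic signalling and scaffold, 27 were tested, 18 on the higher and 9 on the lower side, with a median of 0.016. The most abundant were the chaperone *Hsp90ab1*, at 2218.96 to 2313.31 TPM, *Ctnnb1* (beta-catenin), at 423.35 to 449.56 TPM, and the actin-binding *Cttn*, at 298.08 to 311.89 TPM. *Sntb2*, a syntrophin of the dystrophin and utrophin complexes, was at 6.27, 6.00 and 6.18 TPM in WT and at 6.96, 6.93 and 7.10 TPM in *Ltf*-KO, without overlap (background 8.46%). *Sntb2* was the 1 gene of the list with an unadjusted limma p under 0.05 (background 3.78%), with a log2 difference of 0.16 and a limma adjusted p of 0.999. *Src*, a kinase that acts on the receptor, was at 14.14, 13.76 and 14.91 TPM in WT and at 22.31, 21.23 and 13.78 TPM in *Ltf*-KO. One *Ltf*-KO library was at the WT level and the others above it, and the difference of 0.37 did not pass the test (limma adjusted p = 0.999).

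The lowest unadjusted p of the 7 lists belonged to *Camk2g*, a calcium and calmodulin-dependent kinase, in the list of 10 genes of synaptic nuclei and their transcription factors. It was at 47.53, 44.64 and 44.68 TPM in WT and at 51.50, 57.13 and 51.72 TPM in *Ltf*-KO, without overlap (log2 difference 0.22, limma adjusted p = 0.999). All 10 genes were tested, 8 on the higher and 2 on the lower side. *Gabpa* encodes a subunit of the Ets-family factor that binds the N-box. It was at 40.53 to 42.21 TPM in WT and 40.74 to 44.84 TPM in *Ltf*-KO. The nuclear-envelope gene *Syne1* was at 21.86 to 27.61 TPM in WT and 21.99 to 27.13 TPM in *Ltf*-KO.

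Genes that respond to activity and denervation, when receptor genes are switched on along the fibre, gave 12 tested of 14 in the table, 7 on the higher and 5 on the lower side, with 0 at an unadjusted limma p under 0.05 (background 3.78%). *Runx1*, known to rise in denervated muscle, was at 65.76 to 68.53 TPM in WT and at 68.40, 66.92 and 90.36 TPM in *Ltf*-KO, where replicate 3 was apart from the others (limma adjusted p = 0.999). *Myod1* was at 747.62 to 815.74 TPM in WT and 752.69 to 812.22 TPM in *Ltf*-KO, and *Ncam1* at 115.53 to 147.22 and 124.48 to 133.21 TPM.

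Of 13 genes of receptor assembly, protein glycosylation and inherited myasthenia, 9 were tested, 5 on the higher and 4 on the lower side, none with an unadjusted limma p under 0.05 (background 3.78%). *Unc50*, a factor of receptor trafficking, was at 34.74 to 42.01 TPM over the 6 libraries and *Dpagt1*, an enzyme of N-glycosylation, at 27.40 to 30.82 TPM. *Gmppb*, which makes GDP-mannose, spread more widely, at 24.32, 9.20 and 8.28 TPM in WT and at 8.91, 26.02 and 10.08 TPM in *Ltf*-KO. One library of each genotype was well above the others.

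The enzymes that break down acetylcholine were low. *Ache* (acetylcholinesterase) was at 1.57 to 2.34 TPM in WT and 1.55 to 2.02 TPM in *Ltf*-KO, *Bche* at 2.36 to 2.79 and 2.26 to 3.34 TPM, and *Colq*, the collagen tail that anchors the enzyme at the junction, at 0.24 TPM or less. None of the 11 nicotinic subunits outside muscle receptors reached the muscle subunits that were detected. *Chrna7*, which forms homomeric receptors, was at 3.28, 3.65 and 4.60 TPM in WT and at 4.12, 4.67 and 2.49 TPM in *Ltf*-KO (limma adjusted p = 0.999), *Chrnb2* was at 0.64 TPM or less, and *Chrna3*, *Chrna9*, *Chrna10* and *Chrnb3* were listed at 0 in all 6 libraries.

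**Figure D5:**
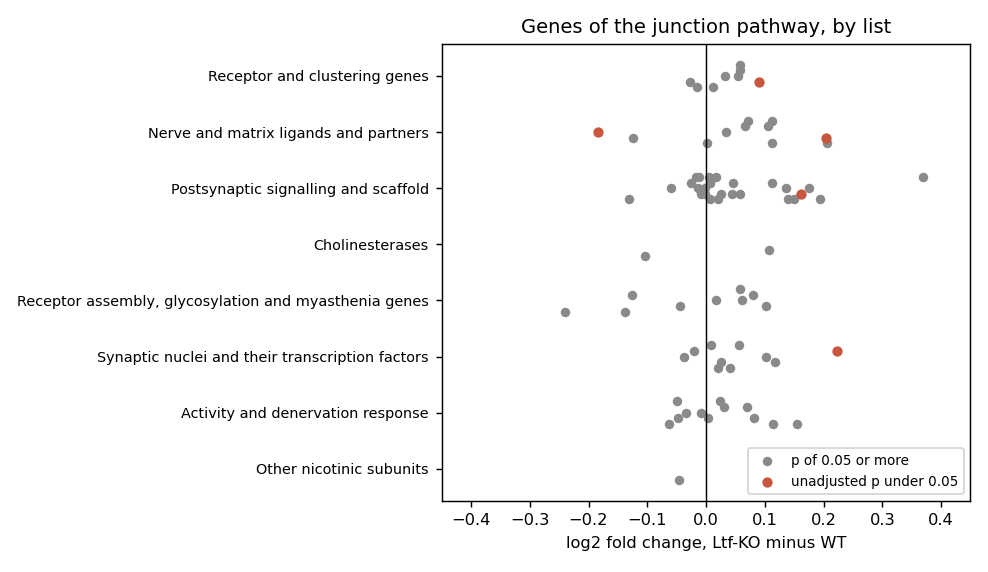
Log2 difference, *Ltf*-KO minus WT on the log2(TPM + 1) scale, of each tested gene in the members' set and 7 pathway lists, 1 point a gene, in red where the unadjusted limma p was under 0.05. *Dok7* is the red point of the top row, and *Camk2g* (0.22), *Lama5* (0.20), *Sntb2* (0.16) and *Col13a1* (-0.18) are the others, none with an adjusted p under 0.05.

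The table's own annotation gave a wider set, the 84 genes with the GO term neuromuscular junction. Without the members it held 76 genes, of which 52 were tested, 35 were on the higher and 17 on the lower side (55.7% of all tested genes were higher), 1 (*Lama5*) had an unadjusted limma p under 0.05 (background 3.78%) and 0 an adjusted p under 0.05, with a median of 0.030.

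Cells other than myoblasts were looked for through their markers. Of 6 neuron markers, the motor neuron genes *Chat* and *Slc18a3*, which make and load acetylcholine, and *Rbfox3* were listed at 0 in all 6 libraries, *Snap25* and *Syt1* were at 0.22 TPM or less, and the tubulin *Tubb3* was at 37.45 to 44.39 TPM. Of the Schwann cell markers, *Ngfr* was at 9.40 to 17.61 TPM over the 6 libraries and the defining *Sox10* at 2.99 to 6.62 TPM. Endothelial markers summed to 4.50 to 9.85 TPM, those of fibroblasts to 4.88 to 11.8 TPM and those of macrophages to 3.21 to 4.19 TPM over the 6 libraries. The 4 markers of smooth muscle and pericytes summed to 31.78 to 42.13 TPM, of which *Cspg4* made up 30.76 to 41.07 TPM, while *Myh11*, *Rgs5* and *Kcnj8* were at 0.62 TPM or less. The part of such cells in the differences of the members was not tested.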

How the data were processed

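SCs were sequenced as 3 WT and 3 *Ltf*-KO libraries, grouped by the sample labels. The deposited table, normalized by the manufacturer's protocol, gives TPM for 55416 genes to 2 decimals. The unit was read from the column sums. The labels name GRCm39 as genome build. The aligner, counting tool, strand setting and annotation release are not given in the sources used here. TPM keeps no depth, so precision was judged from the spread between libraries. Neighbours and exon overlaps were read from GENCODE M21 (GRCm38), and upstream windows from RefSeq on GRCm38.p6, so no gene coordinates of the files' build are printed.

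*Ltf*-KO was compared with WT by limma 3.58.1 in R 4.3.3 (lmFit, eBayes with trend, two-sided, Benjamini-Hochberg adjustment, threshold 0.05) on log2(TPM + 1). Genes averaging under 1 TPM were left out, leaving 12956 (23.4%). On this scale fold changes of low genes are understated. The fit was tested on simulated data. Single values were compared by exact permutation tests. *Chrne*, at 0 in every library, was left out of the tests of order. Alternatives were a pseudocount of 0.1, no filter, a mean of at least 10 TPM, median-of-ratios scaling, quantile normalization, the replicate number as a block, and each library left out in turn. All 9 members were named. Of each list, at most 3 genes by lowest p in either direction and 3 by highest level could be named. Other list genes are named for their role, chosen after their values were seen. The members and lists were chosen with earlier results of these data known. No gene set was tested. *Mitr*, in the activity list, matched no row. One marker gene is not reported here.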

Additional observations from a re-analysis of the deposited data

How the results depend on the processing

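No member and no pathway gene was called at an adjusted p under 0.05 under any of the 12 alternatives run for the comparison, and the adjusted p of the members ranged from 0.946 to 1.0. Over all genes, limma called 0, and 0 to 6 with 1 library left out (6 without WT replicate 2, 5 without *Ltf*-KO replicate 1, 4 without *Ltf*-KO replicate 3, 2 without *Ltf*-KO replicate 2, 1 without WT replicate 3). Genes at an unadjusted p under 0.05 numbered 490, against 890 without a filter, 281 at a mean of at least 10 TPM and 456 to 611 with 1 library left out. The same count among members was 1 (*Dok7*), and 0 to 1 with 1 library left out, being 0 without WT replicate 1, WT replicate 2 or *Ltf*-KO replicate 2. Among pathway genes it was 4, against 2 without a filter, 2 at a mean of at least 10 TPM and 2 to 5 with 1 library left out.

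With the replicate block the count of members fell from 1 to 0 and that of pathway genes from 4 to 1. The labels give both genotypes replicates 1 to 3 and do not say whether same-numbered libraries were handled together. Deviations of same-numbered libraries from their group means correlated at -0.0413, -0.0582 and -0.0875. With 3 libraries in a genotype, these values cannot decide whether the libraries were paired.

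The log2 difference of *Dok7* stayed between 0.078 and 0.10, with unadjusted p from 0.0156 to 0.0908, and that of *Musk* between 0.016 and 0.10. Differences near 0 turned sign: *Chrna1* to -0.0001 under median-of-ratios scaling, *Chrnd* to -0.005 without WT replicate 1, *Rapsn* to 0.0024 with WT replicate 2 left out and 0.0021 without *Ltf*-KO replicate 1, *Chrng* to -0.0005 with WT replicate 3 left out and -0.0016 without *Ltf*-KO replicate 3, *Chrnb1* to 0.02 without *Ltf*-KO replicate 2, and *Lrp4* to -0.028 without *Ltf*-KO replicate 3. The cause of these changes was not tested. With 1 library left out the ranges were 0.0023 to 0.027 for *Chrna1*, -0.055 to 0.02 for *Chrnb1*, -0.005 to 0.12 for *Chrnd*, -0.0016 to 0.17 for *Chrng*, -0.032 to 0.0024 for *Rapsn* and -0.028 to 0.073 for *Lrp4*. The median of all genes was 0.011, and moved to -0.0004 under median-of-ratios scaling and -0.002 under quantile normalization.

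Of the neighbouring pairs in the order of levels, which was taken from the same libraries, 5 of 7 passed the test. With 1 library left out 0 passed, because 5 libraries cannot give an exact p under 0.05, while 5 to 6 pairs kept 1 order in every remaining library. Depth is unknown, so the counting error of values near 0 cannot be estimated.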

Other observations

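As a description over 6 libraries, with no p, the genes whose log2(TPM + 1) was most like that of *Chrna1* among 8064 genes averaging at least 10 TPM were *Rptor* (Pearson's r = 0.999), *Nek7* (0.998), *Zcchc14* (0.992), *Pgp* (0.979) and *Rfk* (0.978). For *Musk* they were *Cdk10* (0.992), *Gm38394* (0.987), *Sap30bp* (0.984), *Irf3* (0.978) and *Mief1* (0.978). With so few libraries, 79 of the 8064 genes had an r over 0.9 with *Chrna1*. The points share library and normalization.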
